A study of Mus musculus with 46 samples.

Results

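The 39 mouse Hox genes were followed through the conversion of fibroblasts by Nanog and Oct4. The members were all rows whose symbol is Hox, a cluster letter from a to d and a number, which gave 39 of the 37108 genes of the time course table and the same 39 of the 35976 genes of a transcript table summed by symbol, while 6 antisense and opposite-strand rows were left out. RNA sequencing compared 2 factor combinations in OG2 MEFs, mouse embryonic fibroblasts with an Oct4-GFP reporter that were cut from E13.5 embryos (OG2 father, 129 mother). NanogBiD (labelled NanogN70+Oct4) is Nanog fused to the N-terminal 70 residues of SS18, the part that binds the BAF chromatin remodeler, delivered with Oct4 by pMXs retrovirus. NanogWT is Nanog and Oct4 without that fusion, delivered the same way. Cells of each combination were collected 0, 1, 3, 5, 7, 8, 10 and 12 days (D0 to D12) after infection, in 2 libraries per day except D8 with NanogBiD, which has 1. D0 is the end of infection, the medium was iCD3, and the cells moved to N2B27 with LIF and 2 kinase inhibitors after 7 days. The other samples were 2 uninfected MEF samples, 1 embryonic stem cell sample (OG2-mES) and 12 iPSC samples, 6 for each combination, from iPSC lines 1 and 2 kept without feeders. The NanogWT iPSC1 samples labelled 1# and 1#-2 share a number and may be 1 line. The methods do not say which parts of the embryos were kept for the MEFs, so a MEF sample may mix fibroblasts of many body levels. The iPSC lines also differ in passage, and the effects of these cannot be told apart.

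Hox genes encode homeodomain transcription factors that tell cells where they lie along the head to tail axis and along the limb. They sit in 4 clusters in which the order of the genes follows the order of their use: low-numbered (anterior) paralogues lie at the 3′ end and start first, high-numbered (posterior) ones lie at the 5′ end and start later and further back in the body. Polycomb complexes keep the clusters silent in embryonic stem cells, MLL (Trithorax) complexes keep them on where they are used, and retinoic acid and the caudal factors Cdx1, Cdx2 and Cdx4 open them. Fibroblasts keep the Hox code of the body site they came from.

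In mm10, cluster A lies on chromosome 6 at chr6:52155367-52260880 with 11 members. Cluster B has 10 members at chr11:96194316-96368254, cluster C has 9 at chr15:102921131-103036856 and cluster D has 9 at chr2:74668225-74765142. By paralogue number, 8 members were counted as anterior (1 to 3), 15 as central (4 to 8) and 16 as posterior (9 to 13). The annotated spans of 10 members overlap another Hox gene, among them Hoxa3 with Hoxa4, Hoxa5 and Hoxa6, Hoxb3 with Hoxb4, and Hoxd3 with Hoxd4, and 20 overlap an annotated gene of any kind, so reads of these neighbours may be split uncertainly.

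The 250 bases before the start of 4 members are shown because these members moved in different ways: Hoxb1 rose first with NanogBiD, Hoxb8 rose late with both combinations, Hoxa5 was the cluster A member highest in MEFs, and Hoxd13 fell. Sequences are from RefSeq on GRCm38.p6 (mm10). The start is that of the promoter entry. For Hoxb1 and Hoxb8 it lies inside the annotated gene span, which begins at chr11:96365746 and at chr11:96279401. Capitals mark TGATNNAT, the site of Pbx-Hox pairs, or TTTATG, the site of Cdx factors, on either strand, and all other bases are in lower case.
Hoxb1, chr11:96365508-96365757, plus strand: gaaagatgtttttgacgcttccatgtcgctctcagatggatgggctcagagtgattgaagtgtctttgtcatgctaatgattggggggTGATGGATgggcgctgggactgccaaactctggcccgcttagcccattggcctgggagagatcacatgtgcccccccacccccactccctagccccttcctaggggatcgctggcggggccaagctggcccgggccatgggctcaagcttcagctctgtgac
Hoxb8, chr11:96281655-96281904, plus strand: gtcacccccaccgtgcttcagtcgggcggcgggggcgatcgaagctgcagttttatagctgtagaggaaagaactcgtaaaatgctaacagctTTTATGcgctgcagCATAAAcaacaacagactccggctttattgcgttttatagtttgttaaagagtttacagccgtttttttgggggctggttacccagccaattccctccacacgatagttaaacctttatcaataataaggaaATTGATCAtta
Hoxa5, chr6:52204588-52204837, minus strand: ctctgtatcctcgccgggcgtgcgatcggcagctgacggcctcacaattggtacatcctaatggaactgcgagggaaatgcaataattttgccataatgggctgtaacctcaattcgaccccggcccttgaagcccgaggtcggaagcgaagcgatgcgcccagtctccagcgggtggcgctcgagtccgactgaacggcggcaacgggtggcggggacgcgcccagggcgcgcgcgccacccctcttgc
Hoxd13, chr2:74667975-74668224, plus strand: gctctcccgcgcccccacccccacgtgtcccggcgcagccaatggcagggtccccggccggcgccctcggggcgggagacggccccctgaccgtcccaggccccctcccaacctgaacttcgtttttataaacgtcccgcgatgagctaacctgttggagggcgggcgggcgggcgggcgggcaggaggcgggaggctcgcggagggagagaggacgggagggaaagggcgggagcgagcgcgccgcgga
The Hoxb1 window holds 1 Pbx-Hox match, 162 bases before the start. Sites of this kind are known to let Hoxb1 act on its own gene. The Hoxb8 window holds 2 Cdx matches, 157 and 143 bases before the start, and 1 Pbx-Hox match 11 bases before it. Neither motif occurs in the Hoxa5 or Hoxd13 window. RefSeq promoters were matched to 22 members, with 24 starts in all. The Pbx-Hox letters were in 4 of these 24 windows (Hoxb8, Hoxb1, Hoxd11 and Hoxa2) and in 7.68% of all 32851 promoter windows of that length. The Cdx letters were in 5 of 24 (Hoxb8, Hoxd11, Hoxd3, Hoxd4 and Hoxa7) and in 10.8% of all windows, and the nuclear receptor half-site AGGTCA was in 6 of 24 and in 14% of all. The Hox windows held a median of 12.5 CpG dinucleotides, against 6 over all promoters.

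Values are FPKM, read counts scaled to transcript length and to the mapped reads of the library, so levels can be set side by side between genes. Differences are on the log2(FPKM + 1) scale with their standard error (SE). A gene passed where limma's adjusted p was under 0.05 and the difference was at least 1, a 2-fold change. Relative depth, read from the step between low values, was 0.832 to 1.13 in 28 libraries and 1.9 to 3.26 in the 6 NanogWT libraries of D8 to D12, so late NanogWT values carry less counting error than late NanogBiD values. All 10 fibroblast markers were at 1 FPKM or more in both MEF libraries. Since these are bulk samples, fewer cells of a type and less RNA per cell cannot be told apart.

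MEFs carried a broad Hox code led by central and low posterior members. The 39 members summed to 259 and 204 FPKM in the 2 MEF samples, and 31 and 33 of them reached 1 FPKM. In cluster A the highest were Hoxa5, which patterns the lung and neck, at 30.1 and 13.6 FPKM, Hoxa7 at 15.8 and 8.62, and Hoxa10, a hindlimb and reproductive tract gene, at 9.5 and 7.53. All 3 were higher in replicate 1. In cluster B, Hoxb9 of the thoracic region had 26.1 and 26.2 FPKM, Hoxb6 had 13.2 and 8.59 and Hoxb2, a hindbrain gene, had 12.0 and 8.19. In cluster C, Hoxc8 had 19.6 and 17.8 FPKM, Hoxc10 had 13 and 10.2, and Hoxc9 had 9.43 and 8.52. These were close in both samples. Cluster D was lower: Hoxd8 had 7.5 and 6.61 FPKM, Hoxd9 had 3.16 and 2.01, and Hoxd13 had 1.16 and 12.2. Hoxd13 marks the distal limb and the genital tubercle, and it was the member with the largest ratio between the MEF samples among these 12. Hoxb1 was at 0 in both MEF samples. Of all 39 members, 27 were higher in MEF replicate 1 and 11 in replicate 2. By a split drawn after the values were seen, 23 of 27 members of paralogue groups 1 to 9 were higher in replicate 1. Of 12 members of groups 10 to 13, 8 were higher in replicate 2, some of them near 1 FPKM.

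**Figure D1:**
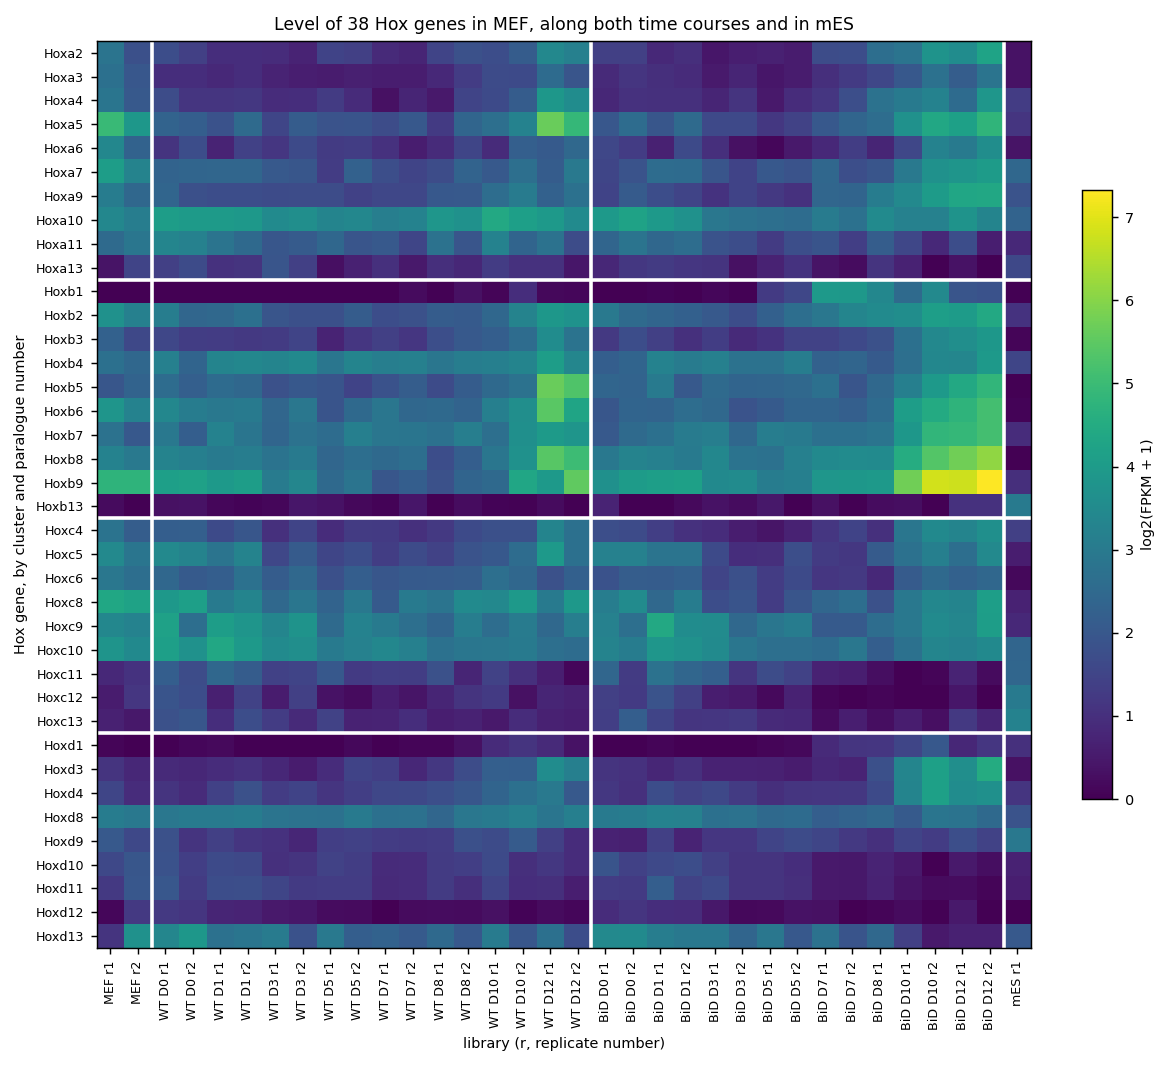
Level of 38 Hox genes (rows, by cluster and paralogue number) in 34 libraries (columns: MEF, NanogWT by day, NanogBiD by day, mES) as log2(FPKM + 1). The central rows of cluster B are brightest on D12 in both combinations, Hoxb9 is the brightest row in NanogBiD, Hoxd13 fades in NanogBiD, and Hoxb1 is dark or nearly so outside NanogBiD from D5.

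The first comparison set D0 against uninfected MEFs. Of the 11 cluster A members, 5 were lower on D0 than in MEFs with NanogBiD and 3 with NanogWT. Of all genes tested 5.61% were lower and 5.82% higher with NanogBiD, and 3.15% were lower and 3.69% higher with NanogWT. Hoxa10 did not pass, with 9.5 and 7.53 FPKM in MEFs, 14.3 and 17.6 on D0 with NanogBiD and 16.1 and 14.9 with NanogWT. Of 10 fibroblast markers, 5 were lower and 1 higher on D0 with each combination. Their summed level was 6672 and 5656 FPKM in MEFs, 1913 and 1802 on D0 with NanogBiD and 2264 and 1916 with NanogWT, and the part of this in the Hox result was not tested. Infection and a change of cell state cannot be told apart in this comparison. Hoxa5 fell from 30.1 and 13.6 FPKM to 2.98 and 5.0 with NanogBiD, by 2.12 on the log2 scale (SE 0.40, limma adjusted p = 0.000458). With NanogWT it fell to 4.07 and 3.57, by 2.15 (SE 0.40, adjusted p = 0.000672). Every D0 library was below both MEF samples. Hoxa7 fell with NanogBiD to 1.89 and 2.67 FPKM, by 1.97 (SE 0.35, adjusted p = 0.000251), and with NanogWT to 4.08 and 4.25, by 1.30 (SE 0.35, adjusted p = 0.0115). Hoxa4 fell with NanogBiD from 6.27 and 3.14 to 0.765 and 1.04 FPKM, by 1.53 (SE 0.37, adjusted p = 0.00362). Hoxa3 fell with NanogWT from 5.57 and 2.98 to 0.931 and 0.945 FPKM, by 1.40 (SE 0.26, adjusted p = 0.000619). Hoxc13, of the hair follicle and nail, rose with both: it had 0.593 and 0.394 FPKM in MEFs, 1.57 and 3.58 on D0 with NanogBiD, and 2.55 and 2.86 with NanogWT, where the difference was 1.31 (SE 0.28, adjusted p = 0.00237).

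In all, 7 of 39 members (17.9%) fell with NanogBiD and 1 (2.56%) rose, where 5.61% of all genes tested fell and 5.82% rose. With NanogWT 3 (7.69%) fell and 1 rose, where 3.15% of all genes fell and 3.69% rose. These 2 comparisons share the MEF samples. Without MEF replicate 1 the NanogBiD count went from 8 to 4, and Hoxa4 no longer passed (adjusted p = 0.0707). Without MEF replicate 2 the NanogWT count went from 4 to 11, and in a fit of the D0 NanogWT and MEF samples alone it was 0.

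Over the next week the summed Hox level fell with NanogWT, from 213 and 179 FPKM on D0 to 100.4 and 100.6 on D7. With NanogBiD it was 143 and 159.5 FPKM on D0, 93.3 and 104 on D5, and 134 and 136 on D7. The anterior members made up 12.4 and 12.9 FPKM of the NanogBiD sum on D0 and 36.3 and 42.7 on D7. With NanogWT 9 members (23.1%) fell between D0 and D7, where 5.69% of all genes fell, and 0 rose, where 12% of all genes rose. They were Hoxb9, Hoxc4, Hoxc5, Hoxc8, Hoxc12, Hoxc13, Hoxa11, Hoxd12 and Hoxd13. Hoxb9 went from 16.6 and 17.4 FPKM to 2.87 and 3.57, a fall of 2.09 on the log2 scale (SE 0.47, adjusted p = 0.00133). Hoxc5, of the neck, went from 10.0 and 8.69 FPKM to 1.5 and 2.18, a fall of 1.87 (SE 0.36, adjusted p = 0.000315). With NanogBiD 6 members (15.4%) fell, where 6.15% of all genes fell: Hoxc5, Hoxc11, Hoxc12, Hoxc13, Hoxa10 and Hoxd10. Hoxc5 was again among them, from 8.25 and 8.24 FPKM to 1.4 and 1.26. The difference was -1.99 (SE 0.36, adjusted p = 0.000159). The D0 and D7 libraries of Hoxc5 did not overlap in either combination. The median of all genes rose by 0.24 between D0 and D7 with NanogBiD, and after quantile normalization, which removes that shift, 15 members fell and 2 rose.

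With NanogBiD 3 of the 8 anterior members rose in this week. The share of the 39 members that rose, 7.69%, was below that of all genes, 12.7%. The other anterior members did not pass, and Hoxd3 went from 1.15 and 1.08 FPKM on D0 to 0.754 and 0.657 on D7. Hoxb1, the first cluster B gene and an early gene of the primitive streak and hindbrain, was listed at 0 in both MEF samples and both D0 libraries. With NanogBiD it had 0.0849 and 0.0266 FPKM on D3, 1.39 and 1.95 on D5, 14.5 and 14.1 on D7, 9.43 on D8, 4.83 and 9.96 on D10 and 2.82 and 2.58 on D12. With NanogWT it was listed at 0 up to D5, had 0 and 0.16 FPKM on D7, and was highest in 1 D10 library, at 0.952. From D5 on every NanogBiD library was above every NanogWT library. NanogBiD minus NanogWT was 1.41 on D5 (SE 0.24, limma adjusted p = 0.000275) and 3.83 on D7 (SE 0.24, adjusted p = 7.35e-10). Embryonic stem cells had 0, and no iPSC sample was above 0.0389 FPKM.

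Hoxd1 also rose between D0 and D7 with NanogBiD from 0 in both libraries to 0.843 and 1.19 FPKM, a difference of 1.01 (SE 0.17, adjusted p = 9.68e-05). Hoxb1 and Hoxd1 were among the 3 members that rose by D7 with NanogBiD (7.69%, where 12.7% of all genes rose), and all 3 are anterior.

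**Figure D2:**
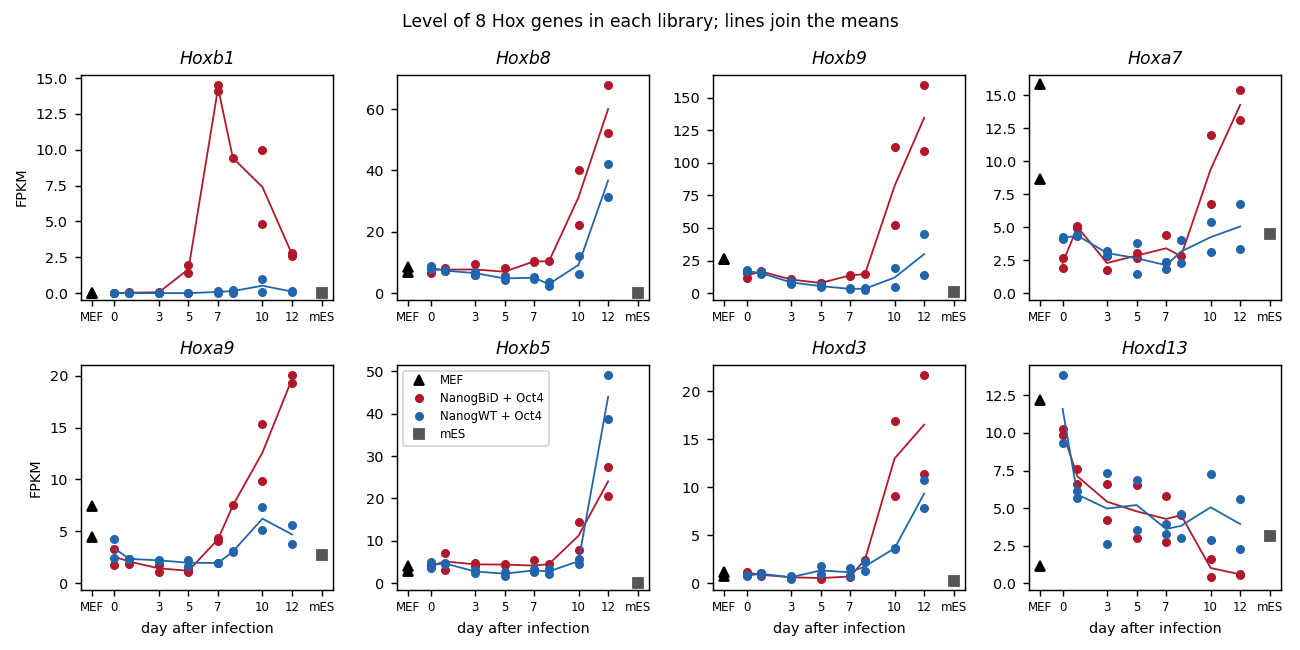
FPKM of 8 Hox genes (linear axes) against day for each NanogBiD (red) and NanogWT (blue) library, with lines through the group means, MEF as black triangles and mES as a grey square. Hoxb1 reaches its NanogBiD maximum on D7, Hoxb8 and Hoxb9 climb on D10 and D12, and Hoxd13 declines.

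Between the combinations, no member passed on D0, D1 or D3, where 0.76%, 1.33% and 3.7% of all genes passed. At an unadjusted p under 0.05, limma had 3, 1 and 4 of the 39 members on these days (7.69%, 2.56% and 10.3%), and 2668, 2266 and 3847 of the 16842 genes tested (15.8%, 13.5% and 22.8%). On D5 Hoxb1 was among the 2 members higher with NanogBiD (5.13%), where 3.2% of all genes were higher and 3.28% lower, and no member was lower. On D7 there were 4 (10.3%), where 5.79% of all genes were higher and 4.65% lower, and again no member was lower. Hoxb1, Hoxb2 and Hoxb9 were among them. Hoxb2 had 6.56 and 9.11 FPKM with NanogBiD and 2.34 and 2.55 with NanogWT, a difference of 1.35 (SE 0.27, adjusted p = 0.000787). Hoxb9 had 13.4 and 13.8 against 2.87 and 3.57 FPKM, a difference of 1.80 (SE 0.47, adjusted p = 0.00679). Here the NanogBiD level was near that of D0, at 11.9 and 15.3 FPKM, while the NanogWT level had fallen. Without NanogWT D7 replicate 1 the adjusted p for Hoxb9 was 0.0548.

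Genes known to act upstream of the clusters moved at that time. Of 12 fixed upstream and retinoid genes, 8 were higher with NanogBiD on D7 and none was lower, where 5.79% of all genes were higher and 4.65% lower. Cdx1 had 32.5 ± 4.04 FPKM (SD, n = 2) with NanogBiD and 0.275 ± 0.0832 with NanogWT, a difference of 4.71 (SE 0.30). Cdx2 had 6.79 ± 0.717 FPKM with NanogBiD and was listed at 0 with NanogWT, and Cdx4 had 5.3 ± 0.528 against 0.0381 ± 0.00207. Gbx2, a hindbrain border gene, was higher by 3.84 and the mesoderm gene T by 2.29. Between D0 and D7 with NanogBiD 9 of the 12 rose, where 12.7% of all genes rose. Cdx1 rose by 5.06 and Aldh1a2, which makes retinoic acid, by 4.15. With NanogWT 2 rose, where 12% of all genes rose: Aldh1a2 by 1.91 and the retinoid receptor gene Rarb by 1.68. Evx1, a homeobox gene of the primitive streak next to Hoxa13, was also higher with NanogBiD on D7, by 1.97, while Hoxa13 had 0.3 and 0.188 FPKM with NanogBiD against 1.01 and 0.402. Markers of primitive streak and axial progenitors, a list that shares T with the upstream list, moved in the same libraries. On D7 3 of the 6 (T, Tbx6 and Nkx1-2) were at 1 FPKM or more with NanogBiD. The sums of these 6 markers were 46.5 and 40.4 FPKM with NanogBiD and 0.705 and 0.68 FPKM with NanogWT. Their part in the Hox result was not tested.

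From D8 to D12 the summed Hox level climbed with both combinations, to 452 and 613 FPKM on D12 with NanogBiD and 393 and 324 with NanogWT. On that day cluster B made up 61.3% and 61.4% of the sum with NanogBiD and 51.9% and 54.1% with NanogWT, against 30.1% and 31.1% in MEFs. Of the 39 members, 20 rose between D0 and D12 with NanogBiD (51.3%, where 24.6% of all genes rose) and 6 fell (15.4%, where 10.2% of all genes fell). With NanogWT 12 rose (30.8%, where 12.2% of all genes rose) and 6 fell (15.4%, where 3.95% of all genes fell). The median difference over the 39 was 1.37 with NanogBiD, where that of all genes tested was 0.34, and 0.14 with NanogWT, where it was 0.19. After quantile normalization, which removes that shift of all genes, the counts were 17 up and 9 down with NanogBiD and 10 up and 10 down with NanogWT. Markers of other cell types moved over the same days. Of 6 neural markers, 6 rose between D0 and D12 with NanogBiD, their sum going from 20.2 and 19.5 to 406 and 578 FPKM, and 4 rose with NanogWT, from 38.2 and 34.7 to 335 and 274. Of 10 fibroblast markers, 8 fell and 0 rose with NanogBiD, while 4 rose and 1 fell with NanogWT. The fibroblast sum with NanogWT was 704 and 677 FPKM on D7, 1688 and 1706 on D8 and 2997 and 2531 on D12. What part these had in the Hox levels was not tested.

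The direction followed the position in the cluster. With NanogBiD 7 of 8 anterior and 11 of 15 central members rose and none fell, while of 16 posterior members 2 rose (Hoxa9 and Hoxb9) and 6 fell. With NanogWT 5 anterior and 7 central members rose, and 6 posterior members fell and none rose. All that rose, 20 with NanogBiD and 12 with NanogWT, were among the 27 members of groups 1 to 9, and every one that fell, 6 in each combination, was among the 12 of groups 10 to 13, a split drawn after the values were seen. Across the 39 members Spearman's rho between paralogue number and the difference was -0.62 with NanogBiD and -0.74 with NanogWT, where points in 1 cluster share neighbours and all share the D0 libraries of their combination. By cluster, 8 members of A, 9 of B, 1 of C and 2 of D rose with NanogBiD, and 4, 6, 0 and 2 with NanogWT. These rises are counted from D0 and not from MEFs. The cluster A sum was 96.7 and 56.8 FPKM in MEFs and 94.6 and 125.9 on D12 with NanogBiD. That of cluster B was 78.0 and 63.4 in MEFs and 277 and 376 on D12 with NanogBiD.

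**Figure D3:**
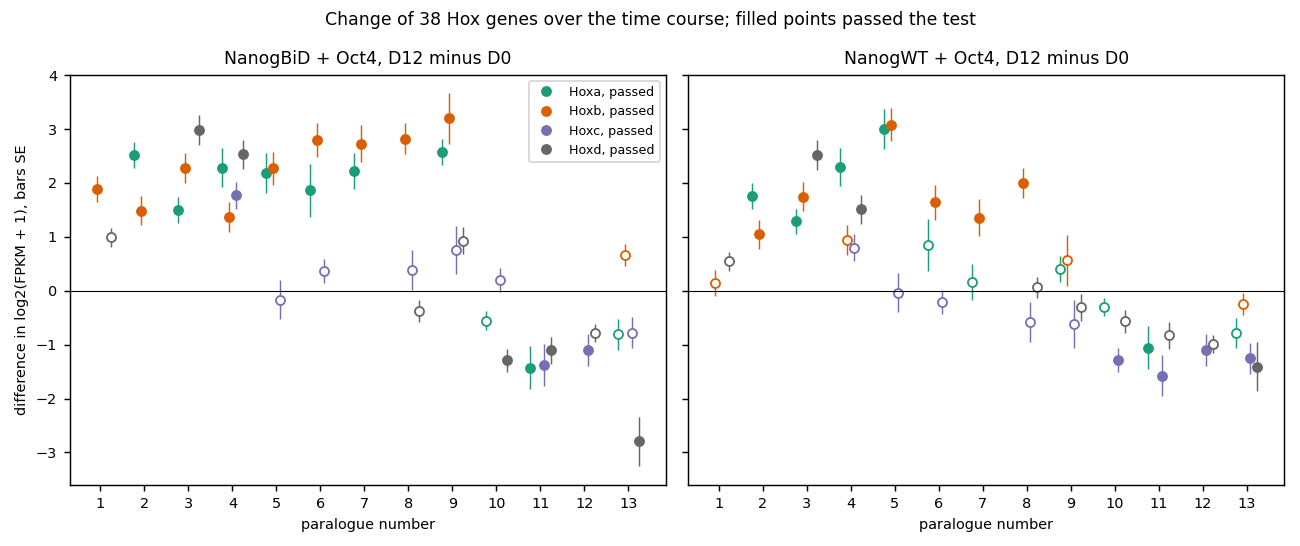
D12 minus D0 on the log2(FPKM + 1) scale (y axis, bars are SE) against paralogue number for 38 Hox genes with NanogBiD and with NanogWT, coloured by cluster, with filled points for those that passed. Points above 1 lie at numbers 1 to 9 and points below -1 at 10 to 13 in both combinations.

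Hoxb9 changed most among the members that rose with NanogBiD. It went from 11.9 and 15.3 FPKM on D0 to 52.5 and 112 on D10 and 109 and 159.9 on D12, a difference from D0 of 3.20 (SE 0.47, adjusted p = 7.71e-06). It alone made up 24.2% and 26.1% of the summed Hox level there. Hoxb8, of the trunk, went from 6.57 and 8.63 FPKM to 52.1 and 67.9, a rise of 2.82 (SE 0.28, adjusted p = 5.02e-08). With NanogWT it went from 8.79 and 7.88 to 42.0 and 31.4 FPKM, a rise of 2.00 (SE 0.28, adjusted p = 1.22e-05). Both D12 libraries of each combination were above all D0 libraries. Hoxb6 rose with NanogBiD from 2.9 and 4.15 to 26.4 and 34.5 FPKM, by 2.80 (SE 0.32, adjusted p = 2.95e-07). Hoxd3, of the upper neck, was near 1 FPKM on D0 with both. It reached 11.3 and 21.7 FPKM with NanogBiD, up by 2.99 (SE 0.28, adjusted p = 2.15e-08), and 10.8 and 7.88 with NanogWT, up by 2.52 (SE 0.28, adjusted p = 6.44e-07).

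With NanogWT 3 of the 4 members that rose most were of paralogue groups 4 and 5. Hoxb5, a gene of the neck and the gut nerve cells, went from 4.99 and 3.64 FPKM on D0 to 49.1 and 38.8 on D12, a rise of 3.08 (SE 0.31, adjusted p = 1.4e-07). It was at 4.66 and 5.74 on D10, so most of the rise came in the last 2 days. With NanogBiD Hoxb5 was at 20.6 and 27.4 FPKM on D12, below both NanogWT libraries. Hoxa5 went from 4.07 and 3.57 to 49.2 and 28.3 FPKM with NanogWT, a rise of 2.99 (SE 0.37, adjusted p = 2.58e-06). With NanogBiD it reached 16.8 and 26.5. Hoxa4 rose with NanogWT from 2.25 and 1.2 to 13.7 and 10.9 FPKM, by 2.30 (SE 0.36, adjusted p = 3.52e-05). NanogBiD minus NanogWT on D12 did not pass for Hoxb5, Hoxa5 or Hoxa4.

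Hoxd13 was the member that fell most with NanogBiD, from 9.86 and 10.3 FPKM on D0 to 0.583 and 0.61 on D12, a difference of -2.79 (SE 0.46, adjusted p = 2.69e-05). With NanogWT it went from 9.33 and 13.9 to 5.59 and 2.3 FPKM, a difference of -1.41 (SE 0.46, adjusted p = 0.0194). All D12 libraries were below all D0 libraries. The other members that fell were Hoxa11, Hoxc11, Hoxc12, Hoxd10 and Hoxd11 with NanogBiD and Hoxa11, Hoxc10, Hoxc11, Hoxc12 and Hoxc13 with NanogWT, by 1.05 to 1.57. Hoxa11 patterns the forearm and lower leg. Limb factors outside the clusters fell as well: of 20 fixed limb and body position genes, 12 fell with NanogBiD and 2 rose, and 4 fell with NanogWT and none rose. Of all genes 10.2% fell with NanogBiD and 3.95% with NanogWT. Prrx1, a limb mesenchyme gene, fell by 4.80 and by 2.34, and Shox2 fell by 2.59 with NanogBiD.

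On D10 more members differed between the combinations than on any other day. NanogBiD was higher in 11 members (28.2%, where 15.4% of all genes were higher) and lower in 5 (12.8%, where 12.3% of all genes were lower). All 11 were of groups 1 to 9 and all 5 of groups 10 to 13, with a rho of -0.69 across the 39. Hoxb9 had 52.5 and 112 FPKM with NanogBiD and 4.69 and 19.2 with NanogWT, a difference of 2.86 (SE 0.47, adjusted p = 3.59e-05). The 5 lower members, named after their values were seen, were Hoxa10, Hoxa11, Hoxc11, Hoxd10 and Hoxd13. Hoxa11 had 1.97 and 0.799 FPKM against 8.51 and 4.1. The D10 counts rested on single libraries. Without NanogWT D10 replicate 1 there were 8 higher and 0 lower, so none of the 5 lower members passed then. There were 17 higher and 7 lower without NanogWT D10 replicate 2, 20 and 6 without NanogBiD D10 replicate 1, and 6 and 4 without NanogBiD D10 replicate 2. Of the 27 members of groups 1 to 9, 1 was higher in NanogBiD D10 replicate 1 than in replicate 2. Replicate 2 also had the higher neural marker sum (493 against 309 FPKM) and the lower pluripotency marker sum (776 against 1282). What part these had in the Hox levels was not tested.

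On D12 there were 7 members higher with NanogBiD (17.9%, where 13.5% of all genes were higher) and 2 lower (5.13%, where 9.97% of all genes were lower), a share of Hox genes near that of all genes. Hoxb9 was higher by 2.32 (SE 0.47, adjusted p = 0.000378), with 14.2 and 45.7 FPKM in the NanogWT libraries. Hoxa9, a gene of the trunk and of blood stem cells, had 19.3 and 20.1 FPKM with NanogBiD and 3.8 and 5.6 with NanogWT, a difference of 1.88 (SE 0.24, adjusted p = 2.87e-06). Hoxb1 was higher by 1.74 (SE 0.24, adjusted p = 4.94e-06). The libraries of the 2 combinations did not overlap for any of the 3. Hoxa7 had 13.1 and 15.4 FPKM against 3.35 and 6.74, a difference of 1.39 (SE 0.33, adjusted p = 0.00173). Hoxd13 was lower by 1.55 (SE 0.46, adjusted p = 0.00816). Without NanogWT D12 replicate 1 neither passed, with 0.98 for Hoxa7 (adjusted p = 0.0492, under the limit of 1) and -1.05 for Hoxd13 (adjusted p = 0.13). Hoxb7 and Hoxd4 (higher) and Hoxa11 (lower) also passed, and no member was lower without that library.

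**Figure D4:**
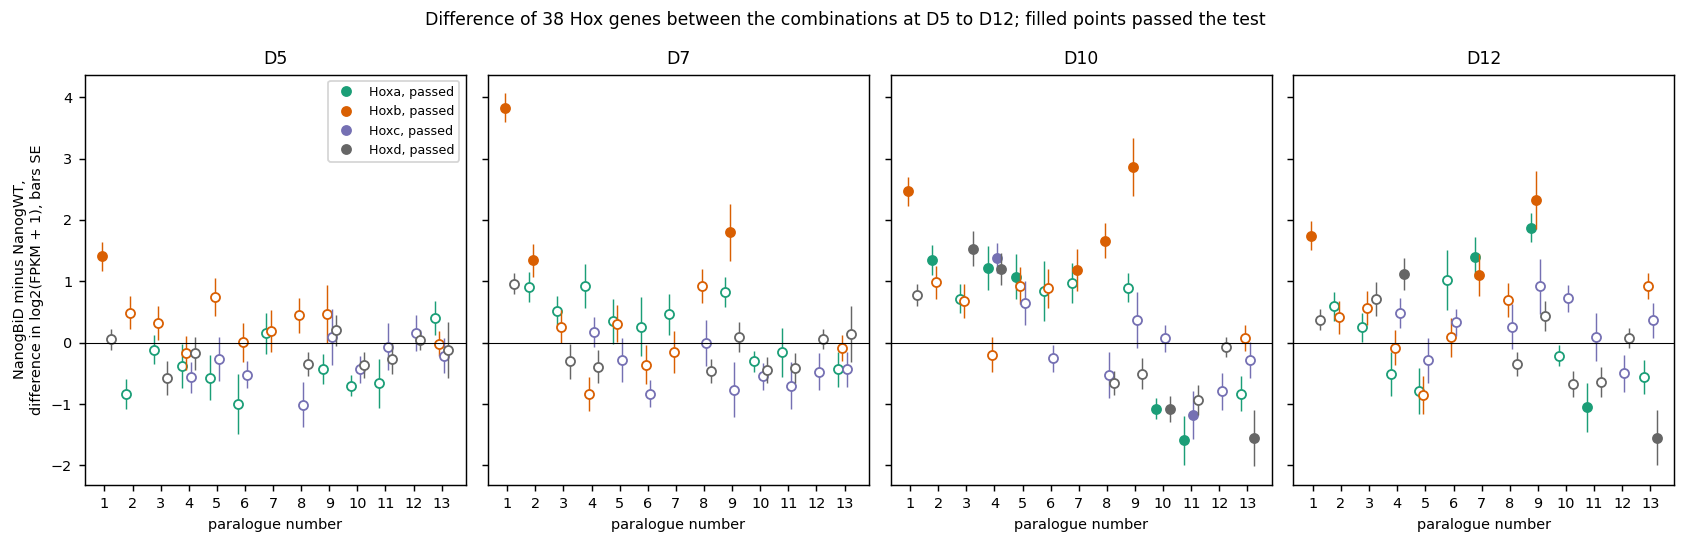
NanogBiD minus NanogWT on the log2(FPKM + 1) scale (y axis, bars are SE) against paralogue number on D5, D7, D10 and D12 for 38 Hox genes, coloured by cluster, with filled points for those that passed. Hoxb1 stands out on D5 and D7, and on D10 filled points are positive up to number 9 and negative from number 10.

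The change from D0 to D12 was also compared directly between the combinations. It was larger with NanogBiD in 10 members (25.6%, where 13.4% of all genes had the larger change with NanogBiD) and smaller in 0, where 10.5% of all genes had the smaller one. Under 3 alternatives Hoxd13 passed on the smaller side, since it fell by more with NanogBiD: with a replicate block (9 members larger), with a pseudocount of 0.1 (8 larger) and without NanogWT D12 replicate 2 (6 larger). The largest differences of change were those of Hoxb9 at 2.63 (SE 0.66, adjusted p = 0.00415), Hoxa9 at 2.17 (SE 0.34, adjusted p = 6.52e-05) and Hoxa7 at 2.06 (SE 0.47, adjusted p = 0.00201). In Hoxa9 the NanogWT libraries went from 4.27 and 2.45 FPKM to 3.8 and 5.6, so these libraries overlapped. Without NanogWT D0 replicate 1 the count went from 10 to 6. Hoxc10 was among the 10 because it was at 8.62 and 7.37 FPKM on D0 and 8.55 and 10.1 on D12 with NanogBiD, while it fell with NanogWT from 16.5 and 12.1 to 5.45 and 5.0.

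Other cell types' genes differed between the same D12 libraries. The fibroblast sums were 259 and 402 FPKM with NanogBiD and 2997 and 2531 with NanogWT, with 9 or 10 of the 10 markers at 1 FPKM or more in the NanogBiD libraries. The neural sums (6 markers) were 406 and 578 against 335 and 274, and the pluripotency sums were 2361 and 1320 against 163 and 235. Their part in the Hox differences was not tested.

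The partners and regulators of Hox proteins were counted from fixed lists. Between D0 and D12, 24.6% of all genes rose with NanogBiD and 12.2% with NanogWT, while 10.2% and 3.95% fell. Of 9 genes for TALE homeodomain cofactors, which bind DNA together with Hox proteins, 7 rose between D0 and D12 with NanogBiD, led by Pknox2 at 2.22, Pbx2 at 2.00, Pbx3 at 1.36 and Meis1 at 1.36, and 3 rose with NanogWT (Pknox2 at 2.17, Meis2 at 1.58 and Meis1 at 1.35). None fell. Of 10 Trithorax side genes, 8 rose with NanogBiD, among them Ash2l by 2.13 and Wdr5 by 2.10, and 1, Kmt2a, rose with NanogWT by 1.04. Of 11 Polycomb genes tested, 6 rose with NanogBiD, among them Ezh2, the histone methyltransferase, by 2.31 and Cbx2 by 2.04, and none passed with NanogWT in either direction. On D12 Suz12 was higher with NanogBiD by 1.93 and Ezh2 by 1.51. So activators and repressors of the clusters rose in the same NanogBiD libraries in which 20 Hox genes and 24.6% of all genes rose. Of 10 genes tested beside the clusters, 2 were higher with NanogBiD on D12, Calcoco2 by 3.10 and Smug1 by 1.23, where 13.5% of all genes were higher.

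In iPSCs most of the code was low. The transcript table, summed by gene, gave Hox sums of 16.7 to 82.4 FPKM over the 12 iPSC samples, with a median of 34.6, against 236 and 187 in MEFs and 67.2 in embryonic stem cells. Of the 39 members, 26 were lower than in MEFs and 3 higher, 4 were tested and did not pass, and 6 did not reach 1 FPKM in 2 samples and were not tested. Over all genes tested 18.8% were lower and 21.9% higher. Hoxa5 had 23.8 and 11.1 FPKM in MEFs and 0 to 1.87 in iPSCs with a median of 0.292, a difference of -3.63 (SE 0.32, adjusted p = 6.92e-07). Hoxb6 had 11.9 and 8.08 in MEFs and 0 to 1.74 with a median of 0, a difference of -3.22 (SE 0.30, adjusted p = 9.78e-07). Hoxc6 had 17.5 and 11.5 in MEFs and 0.0176 to 5.57 with a median of 0.788, a difference of -3.09 (SE 0.54, adjusted p = 0.000234). No iPSC sample reached a MEF sample in any of the 3. Hoxb8 and Hoxb9, the late risers of the time course, had medians of 0.105 and 2.67 FPKM in iPSCs and 0 and 0.761 in embryonic stem cells. Without either MEF sample the count went from 29 to 18. With the NanogWT iPSC1 samples 1# and 1#-2 averaged as 1 sample it was still 3 higher and 26 lower.

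The 3 members that were higher in iPSCs than in MEFs lie at the 5′ end of clusters B and C, and they were high in embryonic stem cells too. Hoxc13 had 4.84 to 9.96 FPKM in iPSCs with a median of 7.08, and 6.42 in embryonic stem cells, against 0.461 and 0.261 in MEFs, a difference of 2.52 (SE 0.23, adjusted p = 8.63e-07). Hoxc12 had 4.59 to 11.3 with a median of 5.14, and 6.48 in embryonic stem cells, against 0.424 and 0.825, a difference of 2.06 (SE 0.21, adjusted p = 2.31e-06). Hoxb13, a tail and prostate gene, had 0.308 to 4.17 with a median of 1.00, and 5.95 in embryonic stem cells, a difference from MEFs of 1.05 (SE 0.39, adjusted p = 0.0276). All iPSC samples were above both MEF samples in each of the 3. On D12 of the time course Hoxc12 and Hoxc13 were far from that level: the NanogBiD libraries had 0.361 and 0 FPKM of Hoxc12 and 1.35 and 0.707 of Hoxc13. Across the 33 members tested, rho between paralogue number and iPSC minus MEF was 0.51. This starts from MEFs, while D12 minus D0 starts from D0, so their signs cannot be set against each other. From MEFs to D0 rho was already 0.42 with NanogBiD and 0.59 with NanogWT. The iPSC and time course values also come from separate tables.

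**Figure D5:**
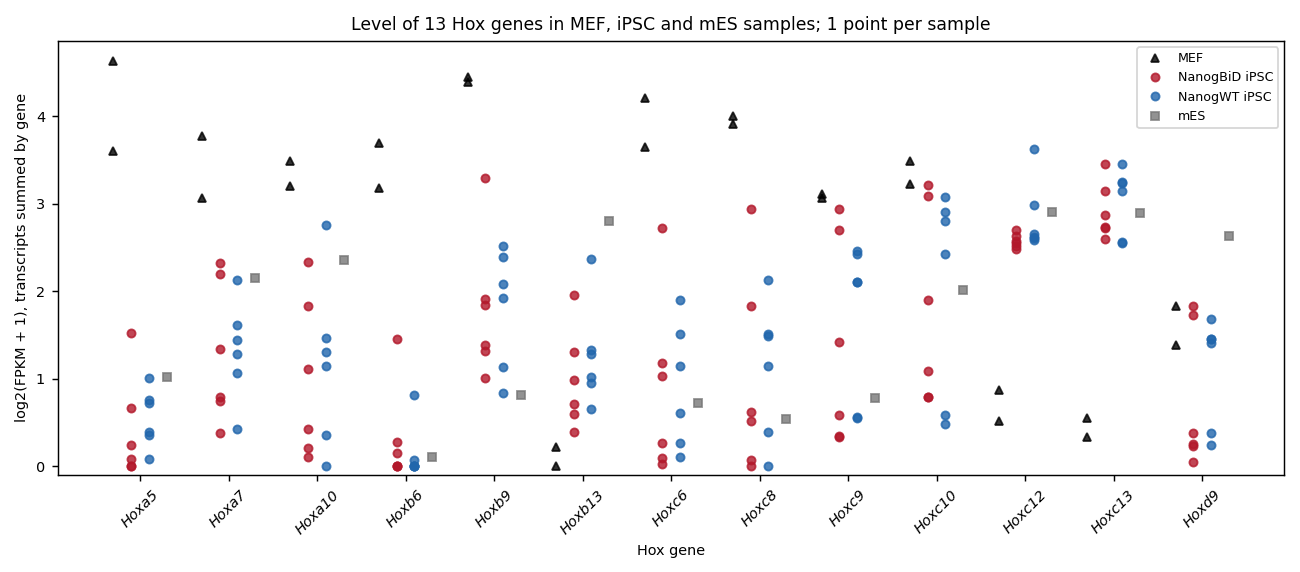
Level of 13 Hox genes as log2(FPKM + 1) (y axis) in each MEF, NanogBiD iPSC, NanogWT iPSC and mES sample of the transcript table. Hoxc12 and Hoxc13 sit above MEF in every iPSC sample, while Hoxa5, Hoxb6 and Hoxc6 sit below.

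Hoxc12 and Hoxc13 were among the 3 members at 1 FPKM or more in all 12 iPSC samples, and 14 were under 1 FPKM in all 12. Hoxc10 ranged from 0.396 to 8.31 FPKM and Hoxc9 from 0.256 to 6.65, the highest samples lying just below the MEF samples. Embryonic stem cells had 17 members at 1 FPKM or more, of which Hoxd9 was at 5.2 and Hoxc11 at 3.58. In 21 members the 1 embryonic stem cell value lay within the iPSC range, in 17 above it and in 1, Hoxb9, below it.

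No Hox gene passed between the iPSCs of the 2 combinations. The sums were 17.0 to 82.4 FPKM with NanogBiD (median 24.9) and 16.7 to 68.8 with NanogWT (median 43.1). Of the 18 members tested, 0 passed, with 0 at an unadjusted p under 0.05 in limma. Over all 12456 genes tested 0% passed and 201 (1.61%) had an unadjusted p under 0.05. That share is smaller than no difference at all would give. The test was therefore strict for every gene and could miss differences between the combinations. The largest Hox difference was -0.43 and the members' median was -0.06. The NanogBiD iPSC1 sample 9# had the highest Hox sum, 82.4 FPKM, and a fibroblast marker sum of 1338 FPKM, where the other NanogBiD iPSC samples had 2.5 to 118. What part these had in its Hox level was not tested. Regulators changed in the other direction to most Hox genes: against MEFs 6 of 10 Trithorax side genes and 7 of 12 Polycomb genes were higher in iPSCs, and 2 Polycomb genes were lower, with Eed up by 2.46 and Wdr5 by 2.66. Of all genes tested 21.9% were higher and 18.8% lower. Of 9 TALE cofactors 4 were lower (Meis1 by -2.75 and Meis3 by -2.18 among them) and 1 higher, and 14 of 17 limb and body position genes tested were lower.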

How the data were processed

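RNA was sequenced from 46 samples: 31 of the time course, 12 iPSC, 2 MEF and 1 mES. Per the labels and the study's methods, the authors trimmed reads with Trim Galore 0.6.4, aligned them to mm10 with HISAT2 2.2.1 and computed FPKM with StringTie 2.2.1. The annotation and strand setting are not given in the sources used here. The labels and the methods name different versions of the mRNA library kit. The deposited values are FPKM, per gene for the time course, MEF and mES, and per transcript for the iPSCs with the MEF and mES samples again. Transcripts were summed by symbol (1 to 11 for a Hox gene), and levels were not compared by test between the tables. No raw counts were used, and relative depth was read from the steps between low FPKM values. Without counts, no counting interval was given, and a value of 0 means listed at 0.

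Genes at 1 FPKM or more in at least 2 samples of a fit were tested with limma 3.58.1 (R 4.3.3, trended variance) on log2(FPKM + 1), with Benjamini-Hochberg adjustment over all genes tested. The pseudocount of 1 understates changes of low genes. The time course fit used 31 samples in 16 groups, with the 2 MEF samples added for comparisons with MEF, and the iPSC fits used the transcript table. A difference passed at an adjusted p under 0.05 and a size of at least 1. Nothing states that replicates came from separate embryos, so p-values measure the spread between these samples, which may be technical. Replicate pairs correlated at 0.9787 to 0.9947 across genes.

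The members and gene lists were chosen with earlier results of these data known. The text gives every sample for the 3 highest members of each cluster in MEFs and for the 5 members with the largest difference that passed (3 for comparisons with MEF). Other members were named after their values were seen. A Hox gene and a cofactor gene enter the counts and sums but are not reported here by name, and the figures leave the former out. Alternatives were another pseudocount, no filter, no fold limit, rescaling, quantile normalization, compared groups alone, a replicate block and left-out libraries. Python 3.11.15, numpy 2.4.6, pandas 2.3.3 and matplotlib 3.10.9 were used.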

Additional observations from a re-analysis of the deposited data

Results flagged for a closer look

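In iPSCs, 8 of 36 sets of 6 samples tested (18 members in each combination) held 1 sample far from the others. The 18 sets of a combination reuse the same 6 samples, with both lines pooled and FPKM not logged. They are not independent, so the count of 8 cannot be set against a chance rate. The NanogBiD iPSC1 sample 9# was the highest for Hoxa5 at 1.87 FPKM, Hoxb9 at 8.82 and Hoxc6 at 5.57. All 3 are members that MEFs express well, and its fibroblast marker sum was 1338 FPKM. The NanogWT iPSC2 sample 5# was the highest for Hoxa10 at 5.74 FPKM, Hoxa9 at 2.06, Hoxb13 at 4.17 and Hoxc12 at 11.3. Its fibroblast marker sum was 27.8 FPKM, and all 4 members are posterior. The NanogWT iPSC1 sample 3# was the highest for Hoxc5 at 1.28 FPKM, with a fibroblast marker sum of 420 FPKM. The part of fibroblast RNA in these levels was not tested.

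The change from D0 to D12 differed between the combinations in 10 members by the limma test of that difference, all with the larger value for NanogBiD. Among them the differences were 2.63 for Hoxb9, 2.17 for Hoxa9, 2.06 for Hoxa7, 1.74 for Hoxb1, 1.48 for Hoxc10, 1.38 for Hoxb7, 1.23 for Hoxd9, 1.16 for Hoxb6 and 1.02 for Hoxd4 on the log2 scale.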

How the results depend on the processing

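For 28 named differences, 352 values were computed under alternatives. Of these 340 kept their direction and their side of the threshold, 12 kept their direction and no longer passed, and 0 changed direction. Of the 28, 20 passed under every alternative. The losses were 3 in fits of the compared groups alone (NanogWT D0 minus MEF: Hoxa5, Hoxa3 and Hoxc13), 3 without replicate 1 and 2 without replicate 2 of every group, 1 without NanogWT D7 replicate 1, 1 without MEF replicate 1 and 2 without NanogWT D12 replicate 1. The causes were not tested.

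The number of members that passed moved by over 1.5 times as follows. With no fold limit it was 2 on D3 (both lower, 0 with the limit), 4 on D5 (2 higher and 2 lower, 2 with the limit), 10 on D7 (8 higher and 2 lower, 4 with the limit), 28 on D10 (16) and 16 on D12 (9) between the combinations, 14 from D0 to D7 with NanogBiD (9) and 17 with NanogWT (9), and 14 for NanogBiD D0 minus MEF (8). With a pseudocount of 0.1 it was 6 on D5 (2 higher and 4 lower), 12 on D7 (10 higher and 2 lower) and 14 from D0 to D7 with NanogWT. After quantile normalization it was 17 from D0 to D7 with each combination. In the compared groups alone it was 0 for NanogWT D0 minus MEF (4).

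With libraries left out it ranged from 0 to 1 on D0 and on D3, from 1 to 2 on D5, from 2 to 6 on D7, from 8 to 26 on D10, from 6 to 11 for the difference of change, from 4 to 12 for NanogBiD D0 minus MEF and from 3 to 11 for NanogWT D0 minus MEF, and it was 18 without either MEF sample for iPSC minus MEF (29). A single left-out library made 1 member pass on D0 (NanogWT D0 replicate 2) and on D3 (NanogBiD D3 replicate 1 or NanogWT D3 replicate 2), and 1 instead of 2 pass on D5 (NanogBiD D5 replicate 2 or NanogWT D5 replicate 1). A group left with 1 library was assumed to vary like the others.

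Same-numbered libraries of the 2 combinations deviated from their group means with correlations of -0.0647 to 0.395 by day. They deviated together most on D7 (0.395) and D0 (0.227). The main fit used no pairing. With a replicate block the difference of change passed in 10 members, of which 9 were larger and 1 smaller with NanogBiD (10 and 0 without the block), and on D5 there were 3 (2 higher and 1 lower) instead of 2. FPKM carry no counts, so depth limits low members in a way that could not be given as an interval, and it differs between late NanogBiD and NanogWT libraries.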
